A study of Oryza sativa with 12 samples.

Results

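The cold responses of 2 rice cultivars were set against each other gene by gene, as the response of cold-tolerant Erythroceros Hokkaido (ERY) minus the response of cold-susceptible Sant'Andrea (S.AND). Anthers at the post-meiotic stage were collected from both cultivars after 1 night at 8 °C (COLD) or at 24 °C (CONTROL), with 3 samples in each of the 4 groups ERY COLD, ERY CONTROL, S.AND COLD and S.AND CONTROL, 12 in all. The 24 °C is the growing temperature that the paper states for the controls, and its methods give another night temperature for growth. Each sample pooled anthers of 5 to 8 plants, the anthers were those with normal anatomy, and all plants had been grown in temperature-controlled chambers before that night. Expression was available as the authors' mean RPKM of each group (reads scaled to the length of a gene and to the total of its library), so no value given here has an SD, the depth of each sample is unknown, and no difference between the cultivars could be tested. A response was the log2 of (COLD mean + 1) over (CONTROL mean + 1). Genes were compared where at least 1 group of each cultivar reached 5 RPKM, which held for 16610 of 55985 genes. A positive difference means a response that was more positive, or less negative, in ERY.

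In the young anther the tapetum feeds the microspores and builds the outer pollen wall, and sugars reach the locule through cell wall invertases and hexose carriers. A cold night at this stage is a well known cause of pollen sterility in rice. Cold is relayed by calcium sensors, by phosphatases and kinases of hormone pathways, and by transcription factors of the AP2/ERF, WRKY, NAC and MYB families. Ethylene acts through receptors, the membrane protein EIN2 and EIN3-like factors, which switch on the ERF genes.

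Most genes responded alike in both cultivars. Across the 16610 genes the responses had a Pearson's r of 0.79 and a Spearman's rho of 0.75, given as a description, since genes are not replicates and all of them share the same 4 sets of libraries. The responses had the same sign in 13170 genes (79.3%), and among the 1948 genes with a response of at least 2-fold in either direction in a cultivar, in 1814 (93.1%). The spread of the responses was similar, with an SD across genes of 0.61 for ERY, close to the 0.60 for S.AND, and the SD of their difference was 0.39 around a median of -0.01. In 14626 genes (88.1%) the cultivars differed by less than 0.5 on the log2 scale. At the ends, 302 genes (1.82%) had a difference of at least 1 and 105 genes (0.632%) a difference of at most -1, although a difference above 0 was found in 47.7% of all genes compared. The 2 ends were therefore of unequal size while the whole was centred near 0.

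**Figure D1:**
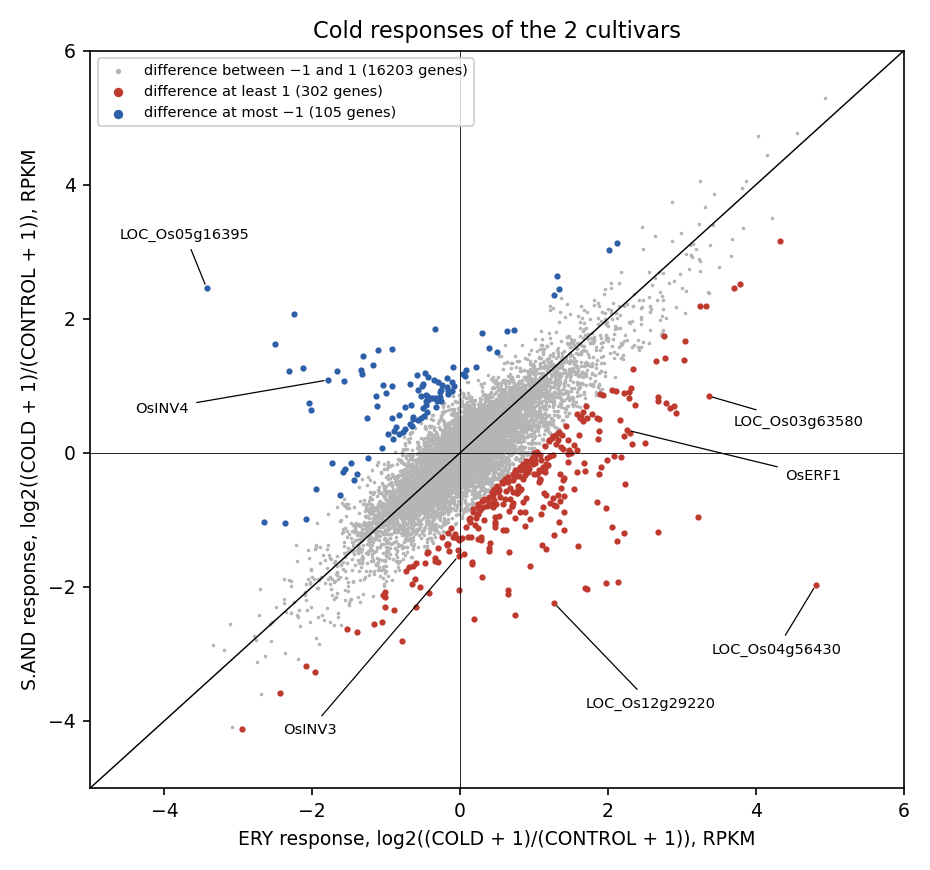
Cold response of ERY (x axis) against that of S.AND (y axis), each as log2((COLD + 1)/(CONTROL + 1)) of the authors' mean RPKM, for the 16610 genes compared, one point per gene. The diagonal marks equal responses; most genes lie along it (r = 0.79), with 302 genes at least 1 below it in red and 105 genes at least 1 above it in blue.

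The genes at the upper end were made up of several kinds of response. Of the 302, 106 had a response of at least 1 in ERY and one between -1 and 1 in S.AND, 64 a response of at most -1 in S.AND with one between -1 and 1 in ERY, and 16 moved past 1 in opposite directions. A further 11 were past 1 in both cultivars, 12 were past -1 in both, and in 93 neither response reached 2-fold, so that a large share of this end came from 2 responses that were each under 2-fold. Of the 105 genes at the lower end, 24 had a response of at least 1 in S.AND alone, 17 a response of at most -1 in ERY alone, and 14 moved in opposite directions, whereas 5 were past 1 in both, 2 past -1 in both, and 43 were under 2-fold in each. Just inside the upper limit lay LOC_Os10g38489, with a difference of 1.00055, and just outside it LOC_Os04g38026, with 0.999673. At the lower limit, LOC_Os08g04910 had -1.00406 and LOC_Os03g58790, a gene described as an ATPase, had -0.995089.

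Both ends were mostly genes whose levels already differed between the cultivars in CONTROL. The difference of responses equals the gap between the cultivars in COLD minus the gap in CONTROL, each as log2((ERY + 1)/(S.AND + 1)), so a choice by this difference favours genes with a large gap in one condition, and the following counts are a description. At the upper end S.AND was the higher cultivar in CONTROL for 282 of 302 genes, in 169 of them by at least 2-fold. The median gap was 0.26 in COLD, against -1.14 in CONTROL, and the gap was narrower in COLD for 217 genes (71.9%) and wider for 85. At the lower end ERY was higher in CONTROL for 97 of 105 genes, in 73 by at least 2-fold, with a median gap of 0.05 in COLD, against 1.59 in CONTROL, and a narrower gap in COLD for 84 (80%). Over all 16610 genes compared, S.AND was higher in CONTROL for 8816 and ERY for 7794, and the gap was narrower in COLD for 55.7%. Read the other way, 28.9% of the 585 genes that S.AND CONTROL had at 2-fold or more over ERY CONTROL were at the upper end and 0.171% at the lower, and of the 403 genes that ERY CONTROL had at 2-fold or more over S.AND CONTROL, 18.1% were at the lower end and 0.744% at the upper. Among the 15622 genes between these limits the shares were 0.832% and 0.198%.

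**Figure D2:**
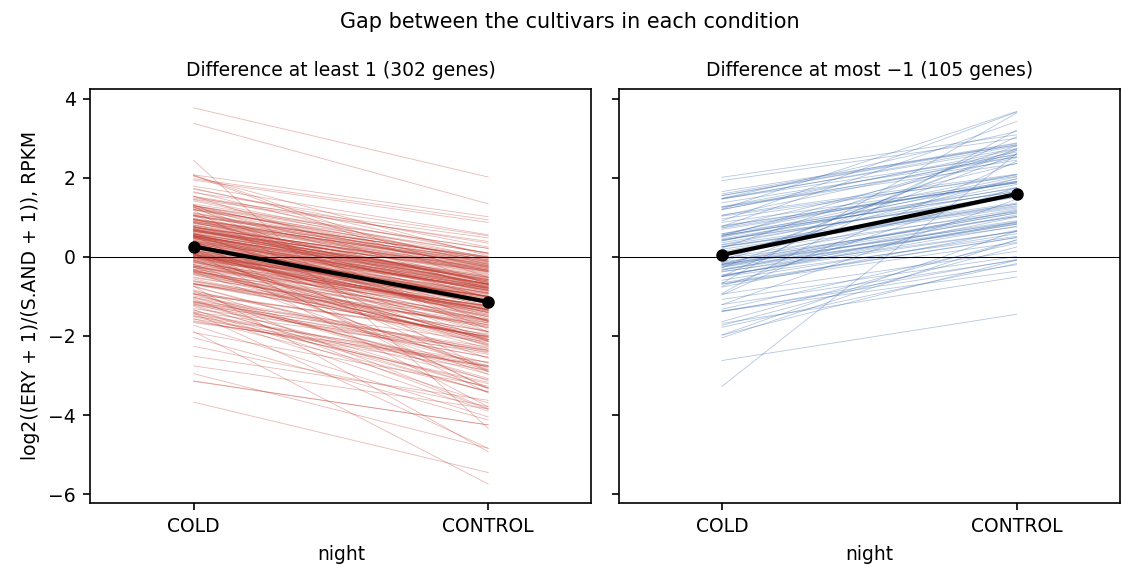
Gap between the cultivars, log2((ERY + 1)/(S.AND + 1)) of mean RPKM, in COLD and in CONTROL for the 302 genes with a difference of at least 1 (left) and the 105 with a difference of at most -1 (right); thin lines are genes and the black line joins the medians. The medians lie at 0.26 in COLD and -1.14 in CONTROL on the left, and at 0.05 in COLD and 1.59 in CONTROL on the right, although 89 of the 302 and 36 of the 105 genes were past 1 or -1 in COLD too.

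Most genes at the ends were not among those that the study called as changed in COLD. Its test on the replicates, which the table of means cannot repeat, called 1459 genes in one or both cultivars, and 91 of the 302 genes and 14 of the 105 were among them. Of all 16610 genes compared, 1373 were called, so called genes held a larger share of both ends than of the whole. A call also needed a 2-fold change in a cultivar, which the genes under 2-fold in each could not meet unless the pseudocount held them there. Product descriptions were at hand for those called genes, so a locus without one was called in neither cultivar. The largest difference of all belonged to such a locus, LOC_Os04g56430. It had 53.6 RPKM in ERY COLD and 0.946 in ERY CONTROL, and 9.04 RPKM in S.AND COLD and 38.4 in S.AND CONTROL, which gave responses of 4.81 in ERY against -1.97 in S.AND, a difference of 6.78. This locus was thus low in ERY CONTROL and in S.AND COLD, and high in the other 2 groups. At the opposite end LOC_Os05g16395, also not called, had 0.25003 RPKM in ERY COLD and 12.5 in ERY CONTROL, and 11.1 RPKM in S.AND COLD and 1.201 in S.AND CONTROL, a difference of -5.89. In both loci the cultivar with the higher level was not the same in COLD as in CONTROL. In all 16 genes (0.0963%) that were at least 2-fold higher in COLD in ERY and at least 2-fold lower in S.AND, S.AND was the higher cultivar in CONTROL, and the gap was narrower in COLD in 15 and of the other sign in 10, with a median absolute gap of 0.70 in COLD and 3.33 in CONTROL. LOC_Os01g03390 was one of them, with 119 RPKM in ERY COLD and 26.3 in ERY CONTROL, and 52.1 RPKM in S.AND COLD and 202 in S.AND CONTROL. In all 14 genes (0.0843%) with the reverse pattern ERY was the higher cultivar in CONTROL, and the gap was narrower in COLD in 10 and of the other sign in 11. LOC_Os12g02340 belonged to these, with 29.2 RPKM in ERY COLD and 170.1 in ERY CONTROL, and 56.3 RPKM in S.AND COLD and 17.5 in S.AND CONTROL. Both sets were chosen by the same values that make up the gaps, which favours such gaps, so these counts are a description. Of the 16, 1 was called by the study, a nodulin MtN3 gene, and of the 14 none was, the invertase gene OsINV4, named from a literature list, included.

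Transport and signalling genes led the described genes of the upper end. Groups formed by description, here and further on, were drawn from words in the descriptions of the called genes, so they were chosen on these samples. They are set beside the 1373 called genes that were compared. Of these 1373, 903 had a difference above 0, 91 were past 1 and 14 past -1, with a median difference of 0.18. The nodulin MtN3 gene (LOC_Os12g29220), of a family that includes the SWEET sugar transporters, had 5.10 RPKM in ERY COLD and 1.53 in ERY CONTROL, and 4.33 RPKM in S.AND COLD and 24.2 in S.AND CONTROL. Its difference of 3.51 was the largest among described genes, and it joined a higher level in cold-treated ERY anthers to a lower one in cold-treated S.AND anthers. Oligopeptide transporter 4 (LOC_Os02g46860), which takes up short peptides, reached 11.98 RPKM in ERY COLD, against 1.88 in ERY CONTROL, and stayed at 11.96 RPKM in S.AND COLD and 12.6 in S.AND CONTROL. An ABC-2 type transporter gene (LOC_Os11g07600) had 20.8 RPKM in ERY COLD and 4.84 in ERY CONTROL, and 9.36 RPKM in S.AND COLD and 10.996 in S.AND CONTROL. In both of these genes the response lay almost wholly in ERY. Of 30 called genes described as transporters, 7 had a difference of at least 1 and none of at most -1, with a median of 0.33. A phosphoesterase gene (LOC_Os03g63580) was higher in COLD in both cultivars, with responses of 3.36 in ERY against 0.85 in S.AND, at 23.4 RPKM in ERY COLD, 1.38 in ERY CONTROL, 17.8 in S.AND COLD and 9.42 in S.AND CONTROL.

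Protein phosphatases 2C, several of which restrain abscisic acid signalling, differed among themselves. Of 9 compared, a group formed by description, 2 had a difference of at least 1 and the median was 0.41, against 91 of 1373 and 0.18 for the called genes as a whole. The first, LOC_Os03g16170, had 109 RPKM in ERY COLD and 22.6 in ERY CONTROL, against 46.9 RPKM in S.AND COLD and 39.4 in S.AND CONTROL. The second, LOC_Os09g15670, had 70.4 RPKM in ERY COLD and 10.1 in ERY CONTROL, against 21.8 RPKM in S.AND COLD and 11.7 in S.AND CONTROL. They belong to the minority of this end with a wider gap in COLD, 1.197 and 1.65 in COLD against -0.77 and -0.19 in CONTROL. The other 7 phosphatases had differences between -0.37 and 0.45. A gene for a RING finger protein (LOC_Os04g49000), a type that often acts as a ubiquitin ligase, had responses of 2.67 in ERY against 0.78 in S.AND, and a gene described as the gibberellin receptor GID1L2 (LOC_Os03g15270) had 1.40 in ERY, against -0.37 in S.AND. Stem-specific protein TSJT1 (LOC_Os04g58280) and hs1 (LOC_Os01g63690), whose roles are not given, had ERY responses of 2.16 and 2.30 and S.AND responses of 0.50 and 0.30. Among Ca2+ sensors 6 of 14 calmodulin-related genes had a difference above 0, a smaller share than the 903 of 1373 called genes, and the median was -0.05. An EF hand gene (LOC_Os07g43800) had responses of 3.33 in ERY against 2.18 in S.AND, and a calmodulin binding protein gene (LOC_Os12g36110) 3.25 in ERY, against 4.06 in S.AND.

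Ethylene genes that reached the minimum in both cultivars had close responses in synthesis, sensing and signal transduction, and apart ones at single ERF genes. The median difference was -0.03 over the 2 synthesis genes compared of 13 listed, 0.04 over 6 of 8 sensing genes and 0.01 over 9 of 13 signal transduction genes, beside -0.01 over all genes compared, and none of these 17 reached 1 either way. OsACO2 (LOC_Os02g53180), which makes ethylene from its precursor ACC, had 108 RPKM in ERY COLD and 26.8 in ERY CONTROL, and 74.5 RPKM in S.AND COLD and 19.0 in S.AND CONTROL, so that its responses of 1.97 in ERY and 1.92 in S.AND were close. Among the 17, the largest differences were 0.60 for OsEBF1 (LOC_Os06g40360) and 0.55 for OsEBF2 (LOC_Os02g10700), F-box genes whose Arabidopsis counterparts target EIN3 for breakdown, and 0.56 for OsRTE2 (LOC_Os05g46240). Of the synthesis, sensing and signal transduction genes below the minimum in a cultivar, OsACO4, OsETR3 and OsACS1 alone went further. OsACO4 (LOC_Os11g08380), another ACC oxidase, had 17.9 RPKM in ERY COLD and 5.86 in ERY CONTROL, against 3.01 RPKM in S.AND COLD and 1.75 in S.AND CONTROL, a difference of 0.92. The ethylene receptor OsETR3 (LOC_Os02g57530) had 4.82 RPKM in ERY COLD and 2.03 in ERY CONTROL, against 10.6 RPKM in S.AND COLD and 2.63 in S.AND CONTROL, a difference of -0.73, and OsACS1 (LOC_Os03g51740), an ACC synthase below 5 RPKM in all 4 groups, had 0.98. Of 6 ethylene response factors compared of 10 listed, OsERF1 (LOC_Os04g46220) alone had a difference past 1, and the other 5 lay between -0.18 and 0.12. OsERF1 had 25.9 RPKM in ERY COLD and 4.60 in ERY CONTROL, against 31.2 RPKM in S.AND COLD and 24.5 in S.AND CONTROL. Its level was thus low in ERY CONTROL only, and its difference of 1.92 went with a gap of -0.26 in COLD and -2.19 in CONTROL.

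Of 11 other ethylene-related factors, 4 had a difference of at least 1 and 10 a difference above 0, with a median of 0.82. The study picked this list from genes it called in these samples, so its direction is not independent evidence. OsERF65 (LOC_Os07g42510) had 9.91 RPKM in ERY COLD and 2.64 in ERY CONTROL, against 7.77 RPKM in S.AND COLD and 7.55 in S.AND CONTROL. AP2/EREBP127 (LOC_Os01g49830) likewise had a response in ERY, 1.40, and nearly none in S.AND, 0.06. OsERF8 (LOC_Os04g55520) and OsERF34 (LOC_Os04g46440) had responses of 1.78 and 2.10 in ERY, against 0.57 and 0.92 in S.AND. The exception was OsERF87 (LOC_Os09g39850), at 6.54 RPKM in ERY COLD and 0.375 in ERY CONTROL, and 14.5 RPKM in S.AND COLD and 0.503 in S.AND CONTROL, a difference of -0.91.

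Transcription factor families, again formed by description, had medians above the 0.18 of the called genes, with few members past 1 apart from WRKY and AP2/ERF. The AP2/ERF group overlaps the ethylene lists above. Of 8 WRKY genes 3 had a difference of at least 1 and the median was 0.61. All 8 were lower in ERY CONTROL than in S.AND CONTROL, against 897 of the 1373 called genes. The median gap of the WRKY genes was -0.21 in COLD and -0.997 in CONTROL. WRKY53 (LOC_Os05g27730), a regulator of defence responses, had 139 RPKM in ERY COLD and 9.17 in ERY CONTROL, against 216 RPKM in S.AND COLD and 36.6 in S.AND CONTROL. It was higher in cold-treated S.AND than in cold-treated ERY although its response was the larger in ERY. WRKY45 (LOC_Os05g25770) was the WRKY gene with a difference below 0, -0.14, and its responses of 2.56 in ERY and 2.70 in S.AND were close. The median difference was 0.52 for 11 NAC genes, of which 1 was past 1, 0.48 for 6 heat shock factors, with 1, 0.38 for 25 MYB genes, with 2, and 0.25 for 20 AP2/ERF genes, with 4. These 4 were OsERF1, OsERF65, OsERF8 and OsERF34, already described, so they add no separate observation. The median response of the NAC genes was 1.67 in ERY, against 1.76 in S.AND. A NAC gene (LOC_Os01g66120) had large responses in both cultivars, with 522 RPKM in ERY COLD and 39.1 in ERY CONTROL, and 396 RPKM in S.AND COLD and 71.2 in S.AND CONTROL, a difference of 1.25. A heat shock factor gene (LOC_Os01g53220) had 48.8 RPKM in ERY COLD against 23.6 in S.AND COLD, and nearly equal levels in the controls, 6.38 RPKM in ERY and 6.36 in S.AND.

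**Figure D3:**
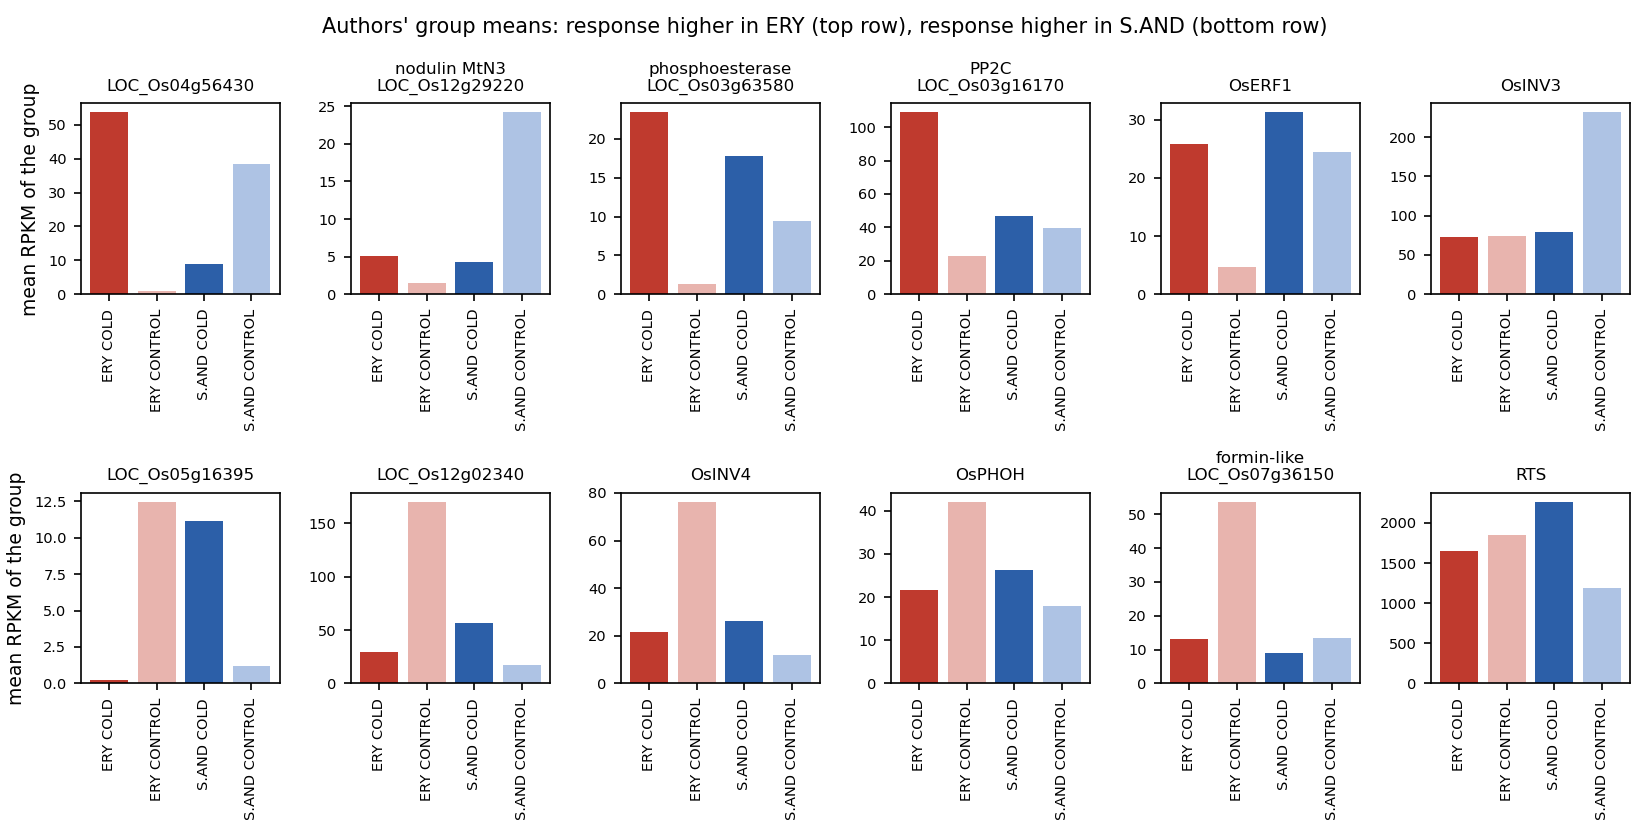
Authors' mean RPKM in ERY COLD, ERY CONTROL, S.AND COLD and S.AND CONTROL for 6 genes with a more positive response in ERY (top row) and 6 with a more positive response in S.AND (bottom row); the axes start at 0 and differ between panels, and there are no error bars because the table holds means only. In OsERF1 the ERY CONTROL bar is the low one at 4.60 RPKM, and in OsINV4 it is the high one at 76.3 RPKM.

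Sugar metabolism genes stood at both ends. OsINV4 (LOC_Os04g33720), an invertase of the kind that splits sucrose into glucose and fructose, had 21.4 RPKM in ERY COLD and 76.3 in ERY CONTROL, against 26.1 RPKM in S.AND COLD and 11.8 in S.AND CONTROL. Its responses of -1.79 in ERY against 1.09 in S.AND gave the lowest difference among genes with a name or a description, -2.87, and its levels were close in COLD and far apart in CONTROL. OsINV3 (LOC_Os02g01590), another invertase, had 73.1 RPKM in ERY COLD and 74.0 in ERY CONTROL, against 79.1 RPKM in S.AND COLD and 231 in S.AND CONTROL, so here the high group was S.AND CONTROL and the difference was 1.52. OsPHOH (LOC_Os01g63270), a starch phosphorylase, had 21.8 RPKM in ERY COLD and 42.1 in ERY CONTROL, against 26.3 RPKM in S.AND COLD and 18.0 in S.AND CONTROL, a difference of -1.44. OsSSIVa (LOC_Os01g52260), a starch synthase, had a difference of 1.04 with responses of 1.30 in ERY against 0.26 in S.AND. Near the lower limit lay OsUGP2 (LOC_Os02g02560), which makes UDP-glucose, at -0.98, and the monosaccharide transporter OsMST8 (LOC_Os01g38670) at -0.74, both with gaps in CONTROL of 2.11 and 2.13 in favour of ERY. Of the sugar genes named in this paragraph the study called OsSSIVa alone. Over the 36 starch and sugar genes compared of 43 listed, the median was -0.03, with 2 genes past 1 and 2 past -1. The remaining invertases and phosphorylase lay between the ends, with a difference of 0.86 for OsINV2 (LOC_Os04g45290), 0.40 for OsINV1 (LOC_Os09g08072) and -0.48 for OsPHOL (LOC_Os03g55090).

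The remaining described genes of the lower end were of varied kinds. A formin-like gene (LOC_Os07g36150), of a family that nucleates actin filaments, had 13.1 RPKM in ERY COLD and 53.7 in ERY CONTROL, against 8.996 RPKM in S.AND COLD and 13.6 in S.AND CONTROL. A ribosome inactivating protein gene (LOC_Os10g24050), which codes for an enzyme that damages ribosomal RNA, had 4.05 RPKM in ERY COLD against 12.2 in S.AND COLD, and similar controls, 25.1 RPKM in ERY and 26.3 in S.AND. These 2 genes were lower in COLD in both cultivars, and more so in ERY. In the next ones, as far as the exo70 gene, the response lay mainly in S.AND. RTS (LOC_Os01g70440), a tapetum gene needed for male fertility in rice that the study did not call, had 1650.2 RPKM in ERY COLD and 1853 in ERY CONTROL, against 2263 RPKM in S.AND COLD and 1188 in S.AND CONTROL. A response regulator receiver gene (LOC_Os03g17570) had responses of 0.39 in ERY against 1.56 in S.AND, a GDSL lipase gene (LOC_Os06g05550) 0.07 in ERY, against 1.15 in S.AND, and an exo70 exocyst gene (LOC_Os01g67820), of the complex that tethers secretory vesicles, 0.72 in ERY, against 1.84 in S.AND. Among RING finger genes both ends were filled, since of 20 compared 3 had a difference of at least 1 and 2 of at most -1, namely LOC_Os02g52210 with -1.50 and LOC_Os04g49170 with -1.30. A bHLH gene (LOC_Os10g01530) had 7.66 RPKM in ERY COLD and 19.5 in ERY CONTROL, against 52.3 RPKM in S.AND COLD and 55.1 in S.AND CONTROL.

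The photosynthesis genes compared were lower in COLD in both cultivars, with 1 exception, and more so in S.AND. Both groups were formed by description from genes the study called. A gene called for its fall in S.AND tends to a difference above 0 by that choice, so their direction is not independent evidence. All 8 photosystem genes compared had a difference above 0, with medians of 0.85 for the difference, -0.73 for the response of ERY and -1.66 for that of S.AND. Photosystem I reaction center subunit XI (LOC_Os12g23200) had 48.2 RPKM in ERY COLD and 76.3 in ERY CONTROL, against 29.3 RPKM in S.AND COLD and 117 in S.AND CONTROL, the one member past 1. The one other gene listed, LOC_Os07g05365, was below the minimum in ERY and not compared, and its responses were 0.54 in ERY against -2.37 in S.AND. All 10 chlorophyll A-B binding genes, which code for light-harvesting antenna proteins, were also above 0, with a median of 0.79, although one of them (LOC_Os01g41710) was higher in COLD, with responses of 1.47 in ERY against 1.25 in S.AND. LOC_Os03g39610 among them had 58.2 RPKM in ERY COLD and 118 in ERY CONTROL, against 20.5 RPKM in S.AND COLD and 89.9 in S.AND CONTROL. The antenna genes had a median gap of 0.96 in COLD and 0.19 in CONTROL, whereas the upper end as a whole had its wide gap in CONTROL.

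Of 7 lipid transfer protein genes, 6 had a difference of at least 1, with a median of 1.10. LTPL129 (LOC_Os06g43600) had 16.1 RPKM in ERY COLD and 24.8 in ERY CONTROL, against 21.5 RPKM in S.AND COLD and 109 in S.AND CONTROL, whereas LTPL69 (LOC_Os03g09230) had close responses of -1.11 in ERY and -0.99 in S.AND. The 10 polygalacturonase and pectinesterase genes, enzymes of pectin and their inhibitors, were all above 0 with a median of 0.60, and 2 were past 1. Of the 1373 called genes compared, 903 were above 0. In the polygalacturonase gene LOC_Os05g20020 the responses were -2.43 in ERY against -3.59 in S.AND. The 4 core histone genes, which package DNA, had a median of 0.81, and LOC_Os03g17100 among them had 29.7 RPKM in ERY COLD and 41.5 in ERY CONTROL, against 14.9 RPKM in S.AND COLD and 48.4 in S.AND CONTROL. For 18 heat shock protein and DnaJ genes the median was 0.33, with 16 above 0. The photosynthesis genes and these groups were all formed by description, from genes the study called in these samples. A call for a fall in S.AND favours a difference above 0, so the direction of these groups is not independent evidence either.

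**Figure D4:**
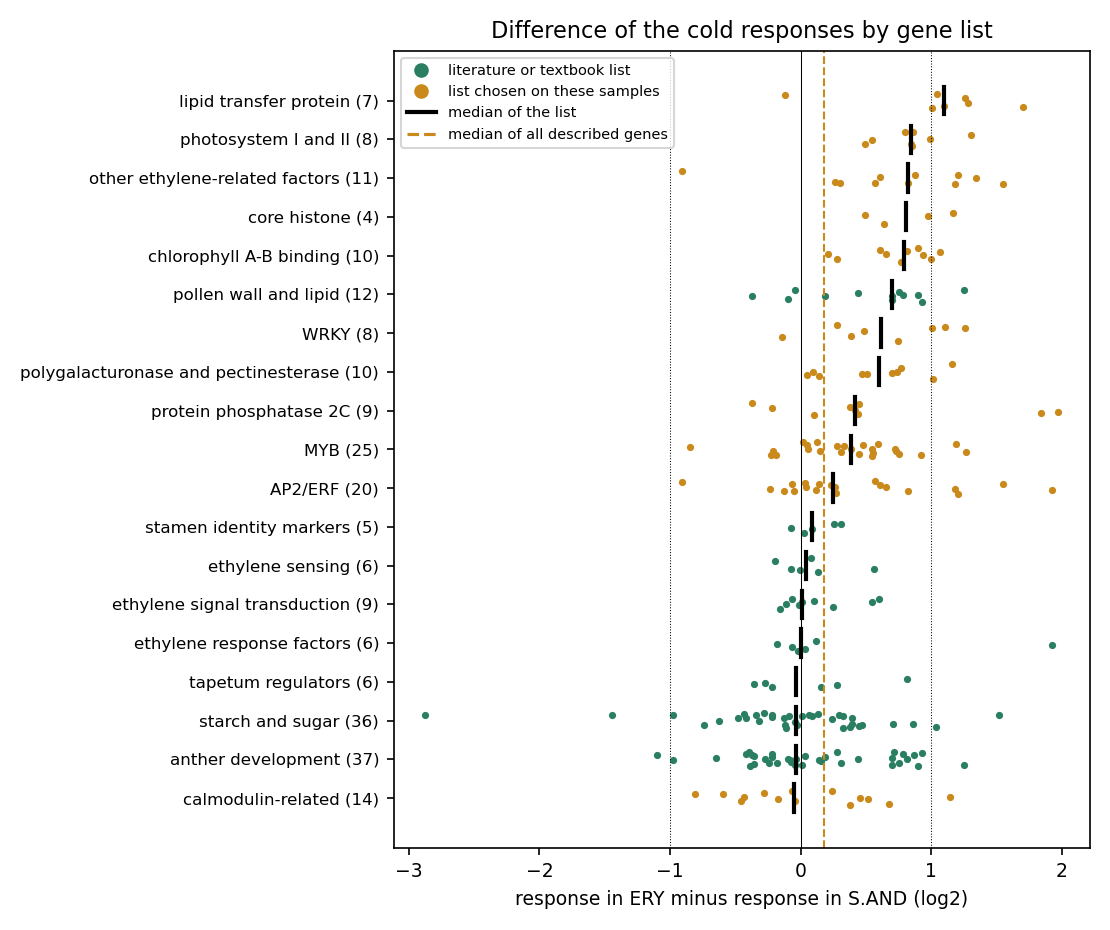
Response in ERY minus response in S.AND (log2, x axis) for the compared members of 19 lists picked for display, the number in brackets; points are genes, black bars are medians and the dashed line is the median of all described genes, 0.18. Lists shown from the literature or from textbook markers (green) have medians near 0 apart from pollen wall and lipid genes at 0.70, a part of the anther development list. Most lists chosen on these samples (orange) lie to the right. The pistil or ovule markers, with 1 gene compared at 1.06, are not shown.

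Among lists taken from the literature, the pollen wall and lipid genes, a part of the anther development list, had a median away from 0. The 37 anther development genes compared had a median of -0.04. OsGT1 and OsUAM3, also tied to the pollen wall, were left out of this part, with differences of -0.08 and 0.14. The part was chosen with earlier results of these data known, so its direction is not independent evidence. Of its 12 genes compared of 15 listed, 9 had a difference above 0, with a median of 0.70. Of the 12, 8 were lower in ERY CONTROL than in S.AND CONTROL, against 8816 of all 16610 genes compared. The median gap of the list was -1.47 in COLD and -2.12 in CONTROL. OsACOS12 (LOC_Os04g24530), an acyl-CoA synthetase of sporopollenin synthesis, had 749 RPKM in ERY COLD and 549 in ERY CONTROL, against 2297 RPKM in S.AND COLD and 4024 in S.AND CONTROL, a difference of 1.25. CYP703A3 (LOC_Os08g03682), a fatty acid hydroxylase, had 123 RPKM in ERY COLD and 115 in ERY CONTROL, against 717 RPKM in S.AND COLD and 1261 in S.AND CONTROL. In both the level was higher in S.AND under either condition and the cultivars were closer in COLD. OsC6 (LOC_Os11g37280), a lipid transfer protein, WDA1 (LOC_Os10g33250), a wax synthesis gene, and OsABCG26 (LOC_Os10g35180), a transporter, had differences of -0.05, -0.10 and -0.37 and gaps in CONTROL between 0.08 and 0.50.

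The members of this list and of the tapetum regulators that were not compared were low in ERY. OsPKS2 (LOC_Os07g22850), a polyketide synthase, had 0.762 RPKM in ERY COLD and 0.646 in ERY CONTROL, against 191 RPKM in S.AND COLD and 343 in S.AND CONTROL. OsMYB103 (LOC_Os04g39470), a tapetum regulator, had 0.158 RPKM in ERY COLD and 0.185 in ERY CONTROL, against 11.2 RPKM in S.AND COLD and 31.2 in S.AND CONTROL. NP1, a putative OsTKPR2, OsTDF1 and PTC1 likewise stayed below 5 RPKM in both ERY groups. Summed over all 9 tapetum regulators, expression was 747 RPKM in ERY COLD and 860.4 in ERY CONTROL, and 1001 RPKM in S.AND COLD and 1209 in S.AND CONTROL. The 6 regulators compared had a median difference of -0.03, and TIP3 (LOC_Os03g50780) the highest, 0.82. The sum was thus lower in ERY than in S.AND in both conditions. The part of tapetum RNA in the differences of response was not tested, and in bulk anthers fewer cells of a type and less RNA per cell cannot be told apart.

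Stamen identity genes, which mark the labelled tissue, were all compared (5 of 5), with differences between -0.08 and 0.31 and a sum of 2881 RPKM in ERY COLD and 2840.4 in ERY CONTROL, and 2260.2 RPKM in S.AND COLD and 2521 in S.AND CONTROL. Pistil or ovule markers were low, and all 3 were higher in COLD than in CONTROL in ERY and lower in S.AND. Their sum was 23.3 RPKM in ERY COLD and 14.9 in ERY CONTROL, against 4.299 RPKM in S.AND COLD and 9.43 in S.AND CONTROL, and none of the 3 was at 0. DL (LOC_Os03g11600), the one that was compared, had a difference of 1.06. OsMADS13 and OsMADS21, not compared, had differences of 2.37 and 1.13 and, unlike DL, were lower in ERY CONTROL than in S.AND CONTROL. Lemma or palea markers summed to 87.3 RPKM in ERY COLD and 74.4 in ERY CONTROL, and 101.7 RPKM in S.AND COLD and 80.2 in S.AND CONTROL, most of it OsMADS14 (LOC_Os03g54160), with a difference of -0.17. OsMADS1 (LOC_Os03g11614), not compared, was higher in ERY, with 13.7 RPKM in ERY COLD and 10.4 in ERY CONTROL, against 4.54 RPKM in S.AND COLD and 4.79 in S.AND CONTROL. OsMADS15 (LOC_Os07g01820) was below 5 RPKM in all 4 groups and higher in S.AND. The part of such tissue in the differences was not tested. As a check of the cultivar labels, 64 genes were below 1 RPKM in ERY CONTROL and at 20 RPKM or more in S.AND CONTROL. Of these, 55 were also below 1 RPKM in ERY COLD, and 4 reached 5 RPKM there. Of 51 genes with the reverse pattern, 49 were below 1 RPKM in S.AND COLD and 0 reached 5 RPKM there. This check does not bear on the COLD and CONTROL labels.

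In genes past the same limit in both cultivars, the median sizes of the responses were close. That choice leaves out genes with a large response in one cultivar only, so it favours close medians. In 520 genes with a response of at least 1 in both, the median was 1.60 in ERY, against 1.44 in S.AND, and 339 (65.2%) had the larger response in ERY. In 392 genes with a response of at most -1 in both, the medians were -1.34 in ERY and -1.46 in S.AND, and 169 (43.1%) had the larger response in ERY. Counted over all genes compared, a response of at least 1 was found in 916 genes for ERY (5.51%), against 671 for S.AND (4.04%), and a response of at most -1 in 574 genes for ERY (3.46%), against 729 for S.AND (4.39%). The 11 genes past 1 in both with a difference of at least 1 include WRKY53, the NAC gene LOC_Os01g66120 and the F-box gene LOC_Os02g44990, with responses of 3.02 in ERY against 1.38 in S.AND.

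Genes of both ends occurred in all 5 classes of expression level. By the highest of the 4 group means, the share with a difference of at least 1 was 1.2% of 1911 genes between 5 and 10 RPKM, 1.95% of 3802 between 10 and 20, 1.8% of 5668 between 20 and 50, 1.81% of 2933 between 50 and 100, and 2.18% of 2296 at 100 RPKM or more. The share with a difference of at most -1 was 0.314% in the lowest and 1.26% in the highest of these classes. The correlation of the responses lay between 0.78 and 0.83 in all 5 classes. The pseudocount of 1 RPKM pulls the differences of low genes towards 0, which bears on the lowest class most.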

How the data were processed

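The authors sequenced poly(A) RNA of anthers, aligned the reads to rice gene models (MSU release 7.0) in CLC Genomics Workbench, and computed RPKM. Per the deposited table, 55985 genes have 1 mean RPKM for each of the 4 groups, normalised by total reads so that each column has nearly the same sum. It has 0 columns of values per sample, so neither spread nor depth could be had and no test was made. Its 4 columns of the authors' fold changes and FDR between COLD and CONTROL were not used. From the 4 means, responses were computed with a pseudocount of 1 RPKM, a minimum of 5 RPKM in a group of each cultivar, and limits of 1 and -1 for their difference. Named genes were those among the 12 highest and 12 lowest differences, the same among described genes, up to 3 per list, genes with opposite responses and genes at the limits; undescribed ones were partly left out. A few other list members are named to show a range, chosen after their values were seen. Gene lists came from the study's tables and from textbook markers, and descriptions from its supplementary text; members and lists were chosen with earlier results of these data known. As 0 of the identifiers matched the reference gene table, no coordinates or sequences are given. Alternatives changed the pseudocount, the minimum, the limit and the centring. The code was tested on simulated data. The software was Python 3.11.15 with pandas 2.3.3, NumPy 2.4.6, matplotlib 3.10.9 and SciPy 1.17.1.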

Additional observations from a re-analysis of the deposited data

How the results depend on the processing

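The size of the ends depended on the settings. A pseudocount of 5 RPKM left 163 genes with a difference of at least 1, of which 162 were among the 302, and 59 of at most -1, all among the 105. A minimum of 1 RPKM gave 539 and 214 genes and an r of 0.74, and no filter on low values gave 733 and 305 genes and an r of 0.67. A limit of 1.5 left 99 and 32 genes, and a limit of 2 left 49 and 18. Smaller shifts came from a pseudocount of 0.1 RPKM (401 and 128 genes), no pseudocount (414 and 127), a minimum of 10 RPKM (205 and 75) and centring each response on its median gene (314 and 102). The difference moved by 0.25 or more in 57 of 136 named genes with a pseudocount of 5 RPKM, in 23 with 0.1 RPKM and in 29 with none, and no named gene past 1 or -1 changed sign. The WRKY median was 0.99 with a pseudocount of 0.1 RPKM and 0.32 with one of 5 RPKM, and the median of the tapetum regulators was 0.28 without a filter. No paired analysis was possible because the table holds group means only; for the same reason no replicate could be left out. The depth of each sample, and so the counting error of genes near 5 RPKM, is unknown.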

Other observations

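Some genes at the ends of the difference followed each other on the chromosome, in numbers for which no share under a random order was computed. Of 301 genes of the upper end with a locus number, 22 (7.31%) formed 11 pairs of genes that follow each other among the genes compared, and of 105 genes of the lower end 13 (12.4%) formed 7 pairs. LOC_Os08g15545 and LOC_Os08g15550 had differences of -2.88 and -4.31, and the gene before them, LOC_Os08g15505, had -2.47. LOC_Os06g51050 and LOC_Os06g51060 had 2.59 and 2.68. A metal transporter gene, Nramp3 (LOC_Os01g53210), and the heat shock factor gene next to it (LOC_Os01g53220) both had 1.02. A pair of retrotransposon genes (LOC_Os07g23640 and LOC_Os07g23660) had 1.39 and 1.28, and the other pairs hold at least 1 gene without a described product. By chromosome, the share of genes with a difference of at least 1 was lowest on chromosome 9, with 8 of 895 genes (0.894%), and highest on chromosome 12, with 22 of 886 (2.48%), and the share with a difference of at most -1 was highest on chromosome 4, with 20 of 1417 (1.41%). Whether the members of a pair share reads was not tested.

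Genes that reached 5 RPKM in one cultivar stand outside the comparison. There were 1045 such genes in ERY, of which 69 had a response of at least 1 and 96 of at most -1 in ERY, and 1108 in S.AND, of which 49 and 180 had such responses in S.AND. A 12-oxophytodienoate reductase gene (LOC_Os06g11240), of an enzyme family that includes a step of jasmonate synthesis, had 44.6 RPKM in ERY COLD and 5.50 in ERY CONTROL, against 0.562 RPKM in S.AND COLD and 0.458 in S.AND CONTROL. A photosystem II 10 kDa gene (LOC_Os07g05365) had 1.55 RPKM in ERY COLD and 0.753 in ERY CONTROL, against 2.94 RPKM in S.AND COLD and 19.4 in S.AND CONTROL. A NAC gene (LOC_Os10g33760) had 0.636 RPKM in ERY COLD and 0.122 in ERY CONTROL, against 3.18 RPKM in S.AND COLD and 17.6 in S.AND CONTROL. The genes named here were chosen by the size of their response within the cultivar that expresses them.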
